A study of Mus musculus with 4 samples.

Results

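Flt3-expressing cells were described in 2 pooled single-cell RNA-seq experiments on mouse bone-marrow progenitors at the start of T-cell development in culture. Members were chosen by raw counts: a cell had to have at least 500 detected genes, under 10% of its unique molecular identifiers (UMIs) from mitochondrial genes, at least 1 Flt3 UMI, 0 Siglech UMIs and fewer than 3 H2-Aa UMIs. Siglech marks plasmacytoid dendritic cells and H2-Aa encodes an MHC class II chain, so that these limits set aside Flt3-positive cells with such transcripts. The limits are called dendritic-cell limits here, but not every cell set aside need be a dendritic cell. Members were 536 of 9332 kept cells in experiment 1 and 711 of 10214 in experiment 2, that is 1247 of 19546 in all. The levels of Flt3, Siglech and H2-Aa, and the class II genes that accompany H2-Aa, are fixed by this choice and are given only as a description.

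Flt3 is a receptor tyrosine kinase for Flt3-ligand and is best known on multipotent and lymphoid-primed progenitors of the bone marrow. These cells seed the thymus, where Notch signals from the stroma switch on T-lineage genes such as Tcf7, Gata3 and Il2ra, and Flt3 is lost as commitment proceeds. Kit, the receptor for stem cell factor, is kept for longer in the first T-cell precursors, and Flt3 is used again by dendritic-cell precursors.

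Bone marrow of B6.Bcl2 transgenic animals aged 8 to 10 weeks supplied the progenitors, which were grown with IL-7 and Flt3-ligand at 10 ng/ml each on OP9-Dll1 stroma, which presents the Notch ligand Dll1, and received MSCV-Runx1-mCherry or MSCV-empty-mCherry retrovirus on day 2. They were sorted on day 4 or day 6 as live Lineage-negative mCherry+ CD45+ cells. In the other arm, progenitors of B6.Cas9;Bcl2 transgenic mice received E42-gRunx1-hNGFR and E42-gRunx3-mTurquoise with 3 guide pairs per gene, or matching vectors with guides against luciferase. These were sorted on day 5 or day 8 as live Lineage-negative mTurquoise+ hNGFR+ CD45+ cells. Sorted cells of the different cultures were then pooled in equal numbers for each experiment. The labels give 4 to 5 days of culture for experiment 1 and 4 to 8 days for experiment 2. All cultures, controls included, carried the Bcl2 transgene, which supports survival, and received Flt3-ligand. The promoters of the transgene and of the vectors are not given in the sources used here.

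Before pooling, each culture was stained with an antibody carrying a short DNA tag (hashtag), and the hashtag tables name their columns only by tag sequence. No label ties a sequence to a vector or a day, so each hashtag is a culture of unknown condition, numbered 1 to 8 by column and the same in both experiments. A number need not stand for the same condition in the 2 experiments. With 1 mRNA library per experiment and cultures of unknown condition, which are not replicates of a group, no p-value is given, and values within each culture are described instead. All intervals are exact 95% intervals for counting error only.

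The kept cells held 244529631 UMIs in experiment 1 and 295625937 in experiment 2, with medians of 25246 and 26648 UMIs per cell. Cells with 1 hashtag, called single cells here, made up 92.2% and 76.6% of the kept cells. Cells with more than 1 hashtag, called hashtag doublets, made up 7.44% and 20.6%. Members were 5.53% of single cells and 8.65% of hashtag doublets in experiment 1, and 6.87% and 7.14% in experiment 2. The libraries shared 39 cell barcodes, of which 1 belonged to a member in both.

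Most members rested on a single Flt3 molecule. In experiment 1, 415 members had 1 Flt3 UMI, 85 had 2, 28 had 3 and 8 had more, up to 13. In experiment 2 the numbers were 533, 128, 39 and 11, with at most 9 UMIs. Just outside the rule, 8660 and 9126 kept cells had 0 Flt3 UMIs, with medians of 24900 and 25884 UMIs per cell against 29933 and 32224 in the members with 1 Flt3 UMI. The dendritic-cell limits set aside 5 and 24 Flt3-positive cells with Siglech and a further 131 and 353 with at least 3 H2-Aa UMIs.

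Detection followed depth. Members had a median of 30936 UMIs against 24959 in the other kept cells of experiment 1, and 33415 against 26148 in experiment 2. With the kept cells put in 5 equal groups by UMI total, members were 1.93% of the shallowest and 11.2% of the deepest group of experiment 1. The corresponding shares in experiment 2 were 1.71% and 11.5%. The share of kept cells was 5.74% (5.28 to 6.23%) and 6.96% (6.48 to 7.47%) at full depth. With every cell thinned to 10000 UMIs, which left out 600 and 833 shallower cells, it was 2.77% (2.44 to 3.14%) and 3.21% (2.86 to 3.58%). Thinning also makes the limit on H2-Aa easier to meet.

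Free RNA was gauged in cells rich in stromal transcripts, a cell type that should lack Flt3. The sort for CD45 and a vector reporter should have removed stromal cells, so some of these barcodes may be blood cells with stromal RNA. Among cells with at least 1% of their UMIs in stromal genes, 4 of 292 met the member rule in experiment 2 (1.37%, 0.374 to 3.47%), at a median of 27522 UMIs per cell. The interval lies below the share in all kept cells of that experiment, whose median depth was 26648 UMIs. In experiment 1 none of 30 such cells had a Flt3 UMI, which by a floor of 3 counts allows a share of up to 10.0%, above the share of all kept cells.

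The member share differed widely between cultures. In experiment 1 it was 10.7% of the single cells of hashtag 1, 11.6% of hashtag 2, 1.93% of hashtag 3, 1.55% of hashtag 4, 3.66% of hashtag 5, 0.978% of hashtag 6, 7.61% of hashtag 7 and 4.78% of hashtag 8. The highest and lowest differed by 11.9 times (6.42 to 24.3), and by 7.49 times between hashtags 2 and 4 when hashtag 6 was left out. In hashtag 6, 40 Flt3-positive cells failed the dendritic-cell limits against 11 members, the reverse of the balance in the other cultures of experiment 1. In experiment 2 the share was 18.7% in hashtag 1, 5.11% in hashtag 2, 0.941% in hashtag 3, 0.692% in hashtag 4, 4.94% in hashtag 5, 12.8% in hashtag 6, 1.38% in hashtag 7 and 12.5% in hashtag 8. Hashtag 1 exceeded hashtag 4, which had only 7 members, by a ratio of 27.0 with a lower bound of 12.8. Hashtags 3, 4 and 7 of experiment 2 were below the 2.01% (0.417 to 5.77%) found in 149 single cells rich in stromal genes, so that their members are not read as evidence of expression. The same interval reaches the shares of hashtags 2 and 5. In experiment 1, 0 of 12 such single cells were members, which by the floor of 3 counts allows up to 25.0%. That lies above the share of every hashtag of experiment 1, so that none of them could be set apart from free RNA in this way. In experiment 2, Flt3-positive cells that failed the dendritic-cell limits outnumbered members in hashtags 3 (57 against 10), 4 (12 against 7) and 5 (51 against 45).

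**Figure D1:**
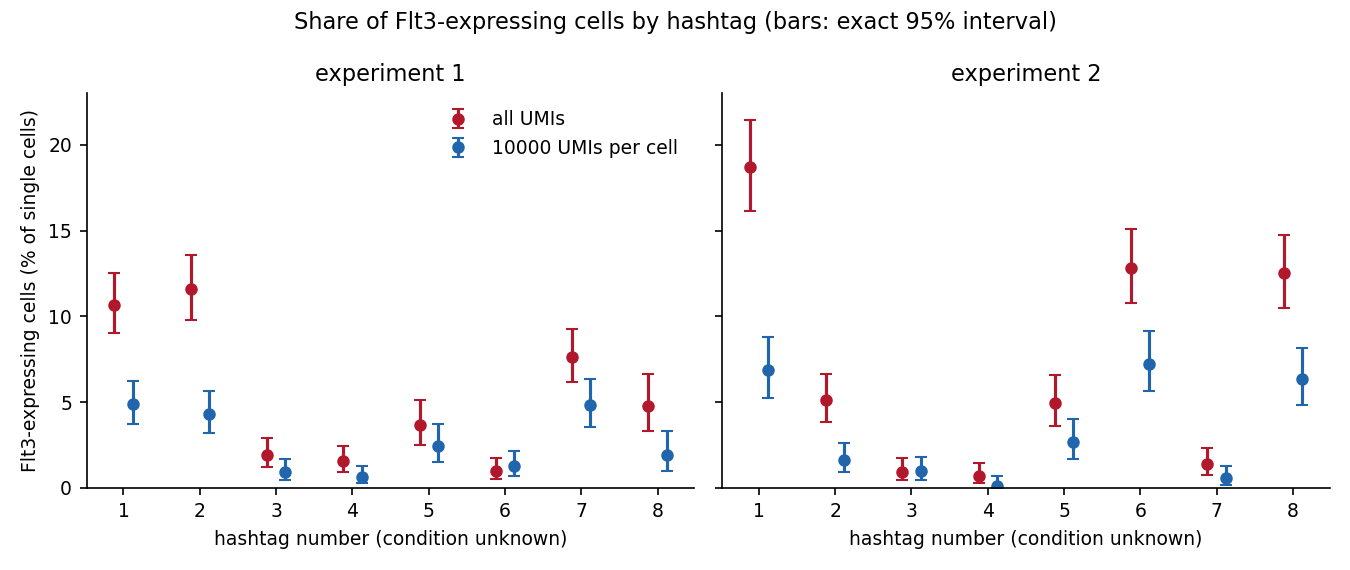
Share of single cells that were Flt3-expressing members (y axis, %) for hashtags 1 to 8 (x axis) in each experiment, with exact 95% intervals, at full depth (red) and with every cell thinned to 10000 UMIs (blue). Hashtags 1 and 2 of experiment 1 and hashtags 1, 6 and 8 of experiment 2 were highest at full depth, and at equal depth hashtag 7 of experiment 1 joined the highest.

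At equal depth the spread between cultures remained. In experiment 1 the thinned share ran from 0.632% in hashtag 4 to 4.88% in hashtag 1, with 4.83% in hashtag 7 and 4.28% in hashtag 2, and every pair of neighbours in the order had overlapping intervals. In experiment 2 it ran from 0.119% in hashtag 4 to 7.25% in hashtag 6. There, hashtags 6, 1 and 8 (7.25%, 6.86% and 6.32%) stood apart from the next, hashtag 5 (2.65%), without overlap of the intervals, and all other neighbours overlapped. Flt3 summed over all single cells, dendritic-cell limits ignored, spanned a narrower range, from 1.09 to 6.02 CPM (UMIs per 1000000 UMIs) over the hashtags of experiment 1 and from 0.956 to 9.51 CPM in experiment 2. Because the shares differed so much, members came mainly from a few cultures: hashtags 1 and 2 gave 28.4% each of the hashtagged members of experiment 1, and hashtags 1, 6 and 8 gave 30.4%, 23.3% and 22.7% in experiment 2.

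The progenitor label was set beside the marker genes Mef2c, Cd34 and Bcl11a, none of which the rule used. Levels here are CPM of UMIs summed over cells, and a ratio is the members' CPM over that of all other kept cells of the same experiment. Mef2c, a transcription factor of lymphoid-primed progenitors (chromosome 13, 83504017 to 83667079 in GRCm38.p6), was at 207 CPM in members and 92.7 in other cells of experiment 1, which gives a ratio of 2.23 (2.15 to 2.31). For experiment 2 the levels were 221 and 105 CPM and their ratio 2.11 (2.05 to 2.17). Cd34, a sialomucin of stem and progenitor cells (chromosome 1, 194938821 to 194961292), had ratios of 1.83 (1.78 to 1.89) and 2.20 (2.14 to 2.26). Bcl11a, a zinc-finger factor needed for lymphoid progenitors (chromosome 11, 24076564 to 24173558), had ratios of 1.58 (1.52 to 1.65) and 1.93 (1.86 to 2.00). At 10000 UMIs per cell, Cd34 was detected in 82.4% of members and 58.3% of other cells in experiment 1, and in 84.7% and 47.1% in experiment 2, while Mef2c was detected in 79.0% against 43.2% and in 82.0% against 43.3%. The 3 markers were thus higher in members. They were named with earlier results of these data known and are no independent check of the label. Some other listed progenitor genes, such as Myb, Mycn, Ikzf2 and Ly6d, were lower in members, as given below.

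These differences were also seen culture by culture. Only hashtags with at least 20 members were compared in this way, namely 1, 2, 3, 5, 7 and 8 in experiment 1 and 1, 2, 5, 6 and 8 in experiment 2. Mef2c in members of experiment 1 had a lowest, median and highest level of 167, 227 and 273 CPM over the 6 hashtags, against 56.5, 106 and 154 CPM in the other single cells. The member level exceeded that of the other cells in each of the 6, and the lowest member value was above the highest of the others. In experiment 2, Mef2c was at 215, 182, 191, 268 and 284 CPM in members of hashtags 1, 2, 5, 6 and 8, and at 139, 88.7, 121, 197 and 106 CPM in the other cells of the same hashtags. It was higher in members in all 5, although hashtag 6's other cells exceeded the members of hashtags 2 and 5. Cd34 and Bcl11a were likewise higher in members in 6 of 6 and 5 of 5 hashtags. To allow for the uneven origin of the members, the other single cells were weighted to the members' hashtags. Mef2c then had ratios of 2.05 and 1.71, Cd34 of 1.62 and 1.77, and Bcl11a of 1.44 and 1.75.

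Across all genes few were far higher in members and more were far lower. Of 5442 genes counted in experiment 1 (10 or more UMIs in each sum and a mean level of 20 CPM or more), 10 were at least 2-fold higher in members (0.184%) and 58 at least 2-fold lower (1.07%). Of 5072 in experiment 2, 9 were higher (0.177%) and 114 lower (2.25%). With the other single cells weighted to the members' hashtags, 9 (0.165%) and 51 (0.937%) passed in experiment 1, and 2 (0.0394%) and 113 (2.23%) in experiment 2. Hence most of the 9 genes that were 2-fold higher in experiment 2 fell short of that fold once the origin of the members was matched. Among the 4946 genes counted in both experiments, 7 were at least 2-fold higher and 45 at least 2-fold lower in both, and none passed in opposite directions. The median ratio over all counted genes was 1.002 and 1.012.

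**Figure D2:**
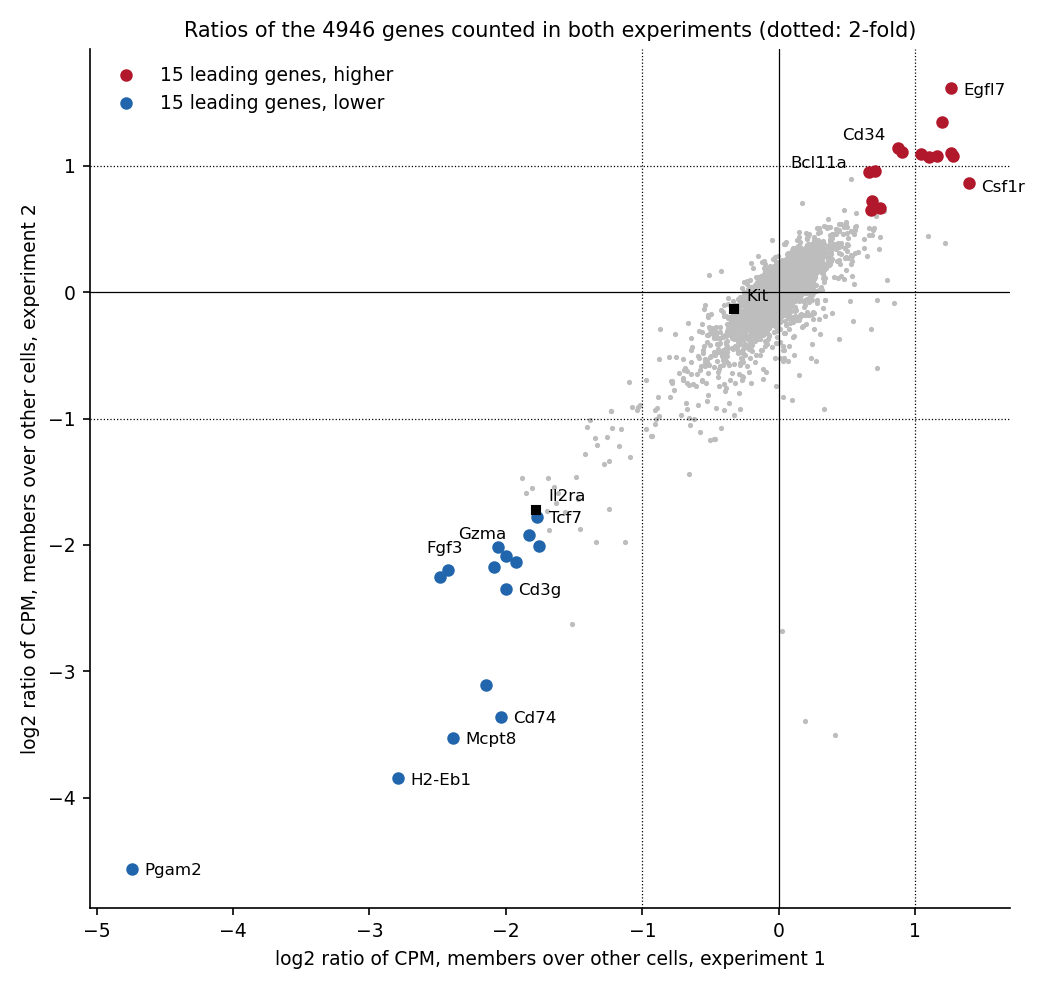
Log2 ratio of CPM, members over other kept cells, in experiment 1 (x axis) and experiment 2 (y axis), one grey point for each of the 4946 genes counted in both. Red and blue points are the 15 leading genes in each direction, black squares are Kit and Il2ra, and dotted lines mark 2-fold. The leading genes were chosen to go the same way in both experiments, which fixes their corner. Among the blue points, Cd74, H2-Ab1 and H2-Eb1 are tied to the limit on H2-Aa. Kit lies close to 0.

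Of the 7 genes at least 2-fold higher in both experiments, 4 belong to the list of stem and progenitor transcription factors (Mef2c, Lmo2, Hoxa7 and Hoxa9), and the other 3 were Egfl7, Pou2f2 and Cox6a2. Egfl7, which encodes a secreted protein first known from endothelium (chromosome 2, 26581083 to 26592682), was at 168 CPM in members and 70.3 in other cells of experiment 1, and at 244 and 79.6 CPM in experiment 2. Its ratios of 2.39 (2.30 to 2.49) and 3.06 (2.97 to 3.15) became 2.06 and 2.23 with weighting by hashtag. Hoxa9, a homeobox factor of stem and progenitor cells, had ratios of 2.29 (2.10 to 2.50) and 2.55 (2.35 to 2.75), and its neighbour in the Hoxa cluster, Hoxa7, of 2.06 (1.92 to 2.19) and 2.13 (2.01 to 2.25). Hoxa7 lies at 52215623 to 52218573 and Hoxa9 at 52223097 to 52227370 of chromosome 6. Lmo2, a bridging subunit of blood stem-cell transcription complexes, had ratios of 2.39 (2.28 to 2.51) and 2.15 (2.07 to 2.23). Pou2f2, an octamer-binding factor of the B lineage, had ratios of 2.42 and 2.11, and Cox6a2, a cytochrome oxidase subunit, of 2.14 and 2.10. Of these, Hoxa9 and Egfl7 had a ratio of at least 2 in both experiments after weighting by hashtag, and all 7 genes were higher in members in every hashtag compared.

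The other stem and progenitor transcription factors lay closer to the other cells. Of the 16 such factors counted in experiment 1, 4 were at least 2-fold higher (Lmo2, Hoxa7, Hoxa9 and Mef2c) and 0 at least 2-fold lower, with a median ratio of 1.12 against 1.002 for all genes. Of 14 counted in experiment 2, the same 4 were higher and 0 lower, with a median of 1.20 against 1.012. Over all counted genes, 0.184% and 0.177% were at least 2-fold higher. Meis1, a partner of Hoxa9, had ratios of 1.32 (1.19 to 1.46) and 1.39 (1.26 to 1.53). Spi1, which encodes PU.1, had 1.24 and 1.13, and Hhex had 1.14 and 1.22. Myb was lower in members, at 0.693 (0.671 to 0.716) and 0.759 (0.732 to 0.787), as was Mycn at 0.532 and 0.515. Ikzf2, which encodes Helios, had ratios of 0.542 and 0.562. Genes of long-lived stem cells were barely detected in members: Hlf was at 0.860 and 0.935 CPM, Mecom at 0.115 and 0.896 CPM. The other cells of experiment 1 were as low, at 0.8895 CPM of Hlf and 0.2378 CPM of Mecom, so that this was not particular to members there.

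Among receptors, Kit did not follow Flt3. It was at 55.4 CPM in members and 69.5 in other cells of experiment 1, a ratio of 0.796 (0.746 to 0.850), and in experiment 2 at 31.6 and 34.7 CPM, which is a ratio of 0.912 (0.848 to 0.980). Kit was lower in members in all 6 hashtags of experiment 1 and in 4 of 5 of experiment 2, hashtag 8 being the exception at 38.7 against 26.8 CPM. The labels call the cultured cells Kit-high, and a Kit UMI was found in 74.1% of members and 72.5% of other cells in experiment 1, and in 58.8% and 49.5% in experiment 2, at full depth. With every cell at 10000 UMIs the order turned, with 41.3% of members and 47.8% of other cells in experiment 1, and 25.0% and 28.0% in experiment 2. Il7r, the receptor for the IL-7 in the medium, was scarce, at 7.97 CPM in members against 16.6 in other cells, and at 8.15 against 19.4 in experiment 2. Csf1r, the M-CSF receptor, had ratios of 2.62 (2.38 to 2.88) and 1.81 (1.69 to 1.94), and was higher in members in every hashtag compared. Csf2rb, the shared chain of the GM-CSF and IL-3 receptors, lay on either side of 1, at 1.46 and 0.854, and Ifngr1 was at 0.922 and 0.656.

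Surface genes of multipotent and lymphoid progenitors varied. Adgrl4, an adhesion G-protein-coupled receptor below the CPM minimum, was at 29.4 CPM in members against 7.42 in other cells of experiment 1 and at 20.3 against 4.86 in experiment 2, ratios of 3.96 (3.58 to 4.38) and 4.18 (3.77 to 4.63). Cd33 was near 2-fold, at 1.91 and 2.04, and was also below the minimum. Emb, Cd27 and Cd44 had ratios between 1.36 and 1.54 in both experiments. Ly6d, a marker of B-cell and plasmacytoid specification, was low in members, at 0.286 (0.261 to 0.312) and 0.342 (0.319 to 0.366). Dntt, which encodes terminal deoxynucleotidyl transferase, stood at 1.65 times the other cells' level in experiment 1 and at 0.957 times in experiment 2. Its levels in members ranged from 8.19 to 132 CPM over the hashtags of experiment 1, and weighting the other cells to the members' UMI totals gave ratios of 2.64 and 1.44, so that its direction in experiment 2 depended on depth.

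Most T-lineage genes counted were lower in members. Of the 20 listed, 9 were counted in experiment 1, of which 6 were at least 2-fold lower and 0 at least 2-fold higher, with a median ratio of 0.374. In experiment 2, 7 of 10 were lower and 0 higher, with a median of 0.387. With weighting by hashtag, 5 and 6 passed. Among all counted genes, without weighting, 1.07% and 2.25% were at least 2-fold lower. Tcf7, which encodes TCF-1 and is an early target of Notch (chromosome 11, 52246527 to 52283383), was at 50.5 CPM in members and 173 in other cells, a ratio of 0.292 (0.273 to 0.312), and at 31.2 and 107 CPM in experiment 2, and so 0.291 (0.271 to 0.313). Over the hashtags of experiment 1, Tcf7 had a lowest, median and highest level of 23.5, 27.5 and 77.8 CPM in members and 99.5, 122 and 265 CPM in other cells, without overlap. In experiment 2 it was at 20.2, 68.6, 34.8, 3.00 and 14.0 CPM in members of hashtags 1, 2, 5, 6 and 8, and at 57.0, 179, 66.1, 31.7 and 103 CPM in their other cells. Each hashtag had the lower level in members, though the groups overlapped across hashtags, with hashtag 2 high in both.

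Il2ra, which encodes the CD25 chain that marks the step to the next stage (chromosome 2, 11642792 to 11693194), had ratios of 0.291 (0.276 to 0.306) and 0.303 (0.286 to 0.321). It was at 13.3, 9.10, 42.5, 2.50 and 38.4 CPM in members of hashtags 1, 2, 5, 6 and 8 of experiment 2, against 74.0, 58.1, 133, 108 and 269 CPM in the other cells, lower in members in each. Gata3, a factor required for T-cell specification, had ratios of 0.450 (0.415 to 0.486) and 0.473 (0.434 to 0.514), and 0.566 and 0.507 with weighting by hashtag, so that the 2-fold difference was lost. Bcl11b, the commitment factor, was at 3.55 CPM in members against 19.0, and at 5.89 against 29.3 in experiment 2. Thy1 had ratios of 0.310 and 0.361, Lat of 0.374 and 0.413, and Cd3g of 0.250 and 0.197. Cd7 was an exception, with ratios of 0.985 (0.921 to 1.05) and 0.598, and of 1.12 with weighting by hashtag in experiment 1. The share of cells with at least 3 T-lineage UMIs among 10000 was 49.8% in members and 82.5% in other cells of experiment 1, and 37.9% and 70.3% in experiment 2, so that T-lineage transcripts were not absent from members.

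**Figure D3:**
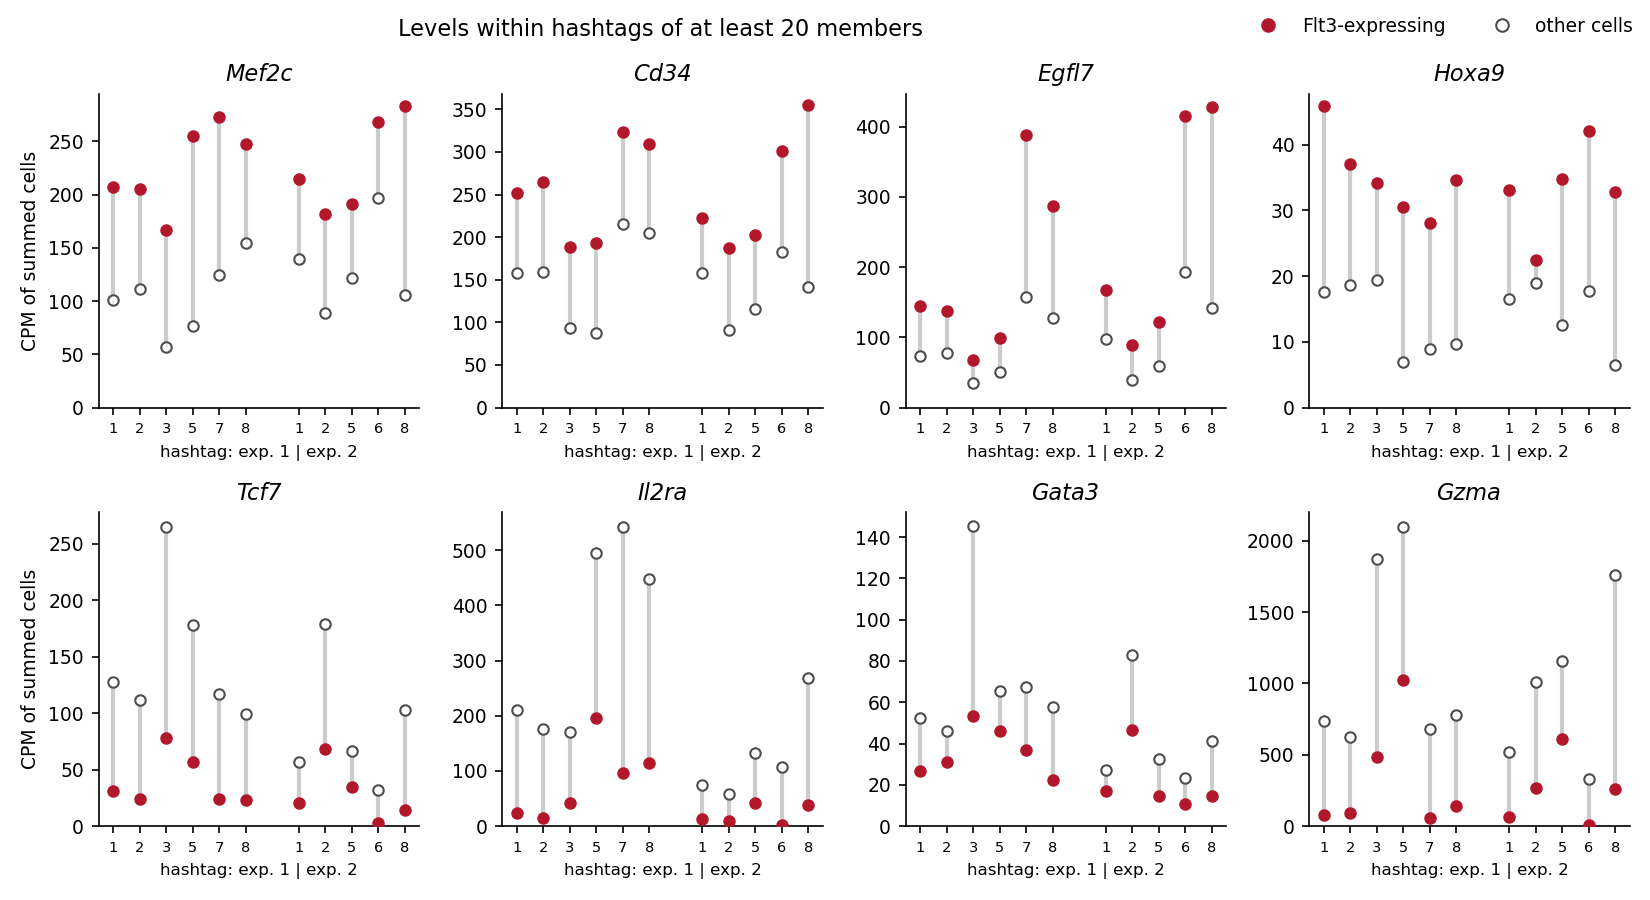
CPM of 8 genes (y axes, from 0) in Flt3-expressing cells (filled red) and other single cells (open) of the same hashtag, for the hashtags with at least 20 members (x axis, experiment 1 left, experiment 2 right). Mef2c, Cd34, Egfl7 and Hoxa9 are higher and Tcf7, Il2ra, Gata3 and Gzma lower in members in all 11 pairs.

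The other Notch genes moved less. Notch1 had ratios of 1.03 and 1.30, and Nrarp, a feedback target of Notch, of 1.13 and 1.63. Dtx1 had ratios of 0.813 and 0.820, and Hes1 of 0.641 and 0.728. Of the 7 genes of the Notch list counted in each experiment, the 3 at least 2-fold lower were Tcf7, Gata3 and Il2ra, and 0 were at least 2-fold higher. Over all counted genes, 1.07% and 2.25% were at least 2-fold lower.

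Innate lymphoid and NK genes were lower in members as well. Of the 16 listed, 5 were counted in experiment 1, of which 3 were at least 2-fold lower. In experiment 2, 5 of 6 counted were lower, and 0 were at least 2-fold higher in either experiment. Among all counted genes, 1.07% and 2.25% were at least 2-fold lower. Gzma, a granzyme that early T-cell and innate lymphoid precursors express, was at 365 CPM in members against 1299, and at 306 against 1161, ratios of 0.281 (0.274 to 0.288) and 0.263 (0.258 to 0.269). Fcer1g, a signalling chain of Fc and NK receptors, had ratios of 0.422 and 0.396. Zbtb16, which encodes the PLZF factor of innate lymphoid precursors, was at 2.12 CPM against 14.4, and at 0.896 against 8.43 CPM in experiment 2. Nkg7 differed little, at 0.970 and 0.921.

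Genes of other blood lineages differed by lineage. Mast cell and basophil genes summed to 51.5 CPM in members and 246 in other cells of experiment 1, and to 40.1 and 308 CPM in experiment 2, with Fcer1a, Tpsb2 and Cma1 at 0 in both. Mpo and Elane, granule enzymes of neutrophil precursors, had ratios of 0.235 and 0.350 in experiment 1 and of 0.221 and 0.162 in experiment 2. Prtn3, the granule enzyme proteinase 3, had ratios of 1.49 and 1.24, but of 1.22 and 0.910 with weighting by hashtag, so that its direction in experiment 2 depended on the origin of the members. Of the granulocyte and monocyte genes counted, 1 of 9 (Csf1r) was at least 2-fold higher and 3 at least 2-fold lower in experiment 1, and 10 of 13 were lower and 0 higher in experiment 2. Over all counted genes, 0.184% and 0.177% were higher and 1.07% and 2.25% lower by that fold. The granulocyte and monocyte list summed to 756 CPM in members and 707 in other cells of experiment 1, but to 1142 and 5784 CPM in experiment 2. Members nevertheless had at least 3 such UMIs among 10000 more widely, in 55.9% (51.5 to 60.2%) against 30.9% (29.9 to 31.9%) of other cells, and in 64.0% (60.3 to 67.5%) against 42.3% (41.3 to 43.4%). Prtn3 alone was at 325.5 and 412.5 CPM in members, a large part of the list's sum. These shares of cells were not weighted by hashtag. The neutrophil genes S100a8 and S100a9 differed between experiments, with ratios of 1.14 and 1.33 in experiment 1 and 0.0954 and 0.0880 in experiment 2, where the other cells held 1856 and 1879 CPM. In experiment 1, S100a8 in members came almost entirely from hashtag 2 (294 CPM), the other 5 hashtags having at most 1.84 CPM. Itga2b, a megakaryocyte and early progenitor integrin, had ratios of 0.231 and 0.228. Stromal genes summed to 9.69 CPM in members of experiment 1 and to 306 CPM in experiment 2, against 77.2 and 855 CPM in other cells, with Dcn at 0 in both. The part of stromal RNA in the differences was not tested, and the stromal sum was lower in members in 5 of 6 and 5 of 5 hashtags.

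Dendritic-cell genes split by their tie to the rule. The class II genes Cd74, H2-Ab1 and H2-Eb1 had ratios of 0.244, 0.226 and 0.144 in experiment 1 and 0.0974, 0.116 and 0.0694 in experiment 2, where the limit on H2-Aa had fixed their direction. Without the Siglech and H2-Aa limits all 3 were above 1 in experiment 2, at 1.43, 1.61 and 1.34. Irf8, a factor of dendritic and monocyte precursors, was higher in members of experiment 1 at 1.66 (1.56 to 1.77), in 6 of 6 hashtags. In experiment 2 its ratio was 1.27 (1.22 to 1.32), in 4 of 5 hashtags, hashtag 8 having 45.5 CPM in members and 91.3 in other cells. Cst3 was at 1.25 and 0.526. The classical dendritic-cell genes Clec9a and Cd209a were at 0 in members of both experiments. The limit on H2-Aa may bear on them too, which was not tested. Of B-lineage genes, Cd79b had ratios of 1.47 and 1.24, whereas Ebf1 was at 0.115 CPM in members against 3.11, and at 13.6 against 40.1 CPM in experiment 2. Ighm, an immunoglobulin heavy-chain gene named after its value was seen, was also among the 10 genes 2-fold higher in experiment 1, at 2.32.

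Cells were also classed by detection of Kit and Il2ra, since Il2ra appears after Kit on the way to T cells. The classes are not stages, because detection depends on depth and the kept cells include cells with transcripts of other lineages. With every cell at 10000 UMIs, 32.2% of members (28.2 to 36.4%) had Kit without Il2ra in experiment 1, against 19.1% (18.2 to 20.0%) of other cells, and 20.7% (17.8 to 23.9%) against 15.8% in experiment 2. Cells with both made up 9.09% of members and 28.7% of other cells in experiment 1, and 4.26% and 12.2% in experiment 2. Cells with Il2ra alone made up 13.4% and 29.4%, and 8.37% and 28.6%. At this depth cells with neither were the largest class of members, at 45.3% against 22.7% and at 66.7% against 43.4%. At full depth the largest class of members was Kit without Il2ra, at 50.0% in experiment 1 and 45.9% in experiment 2. Cells with neither then made up 18.7% of members against 10.4% of other cells, and 34.5% against 29.6%. The first class is part of the wider class of Kit-positive Il2ra-negative cells, which at full depth held 268 members and 2120 other cells in experiment 1 and 326 members and 2159 other cells in experiment 2.

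**Figure D4:**
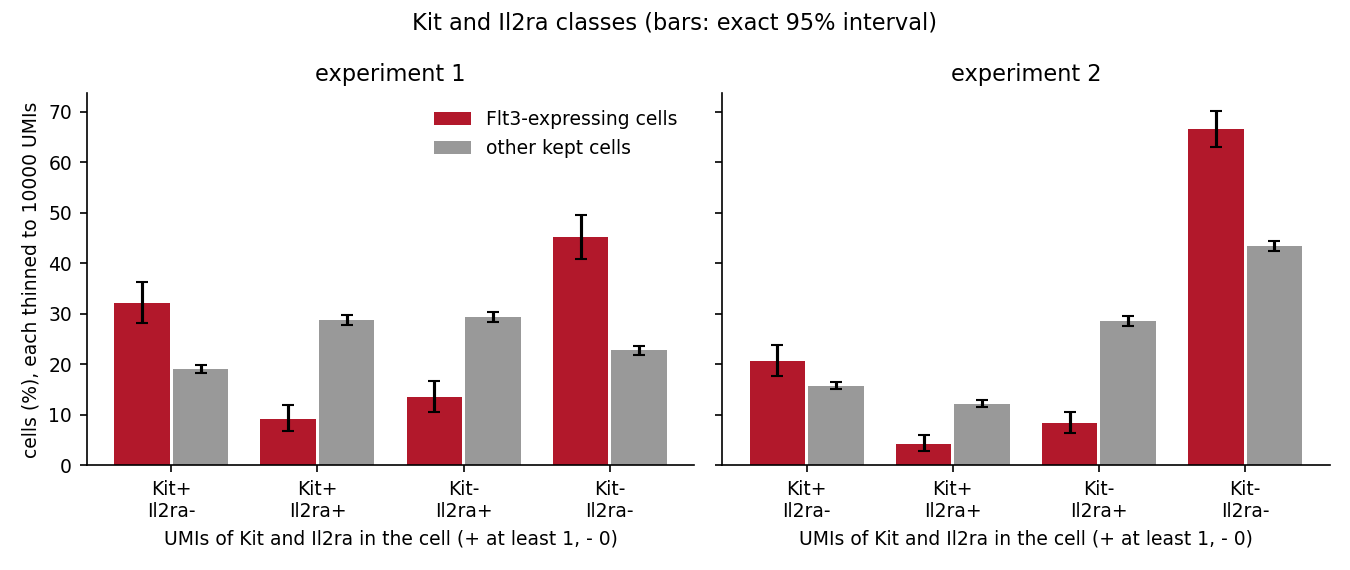
Percent of Flt3-expressing cells (red) and other kept cells (grey) in 4 classes by detection of Kit and Il2ra (x axis), with every cell thinned to 10000 UMIs and exact 95% intervals. Both classes with Il2ra hold a smaller share of members than of other cells. The class with neither gene is the largest of the members at this depth, but not at full depth.

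Set against other Kit-positive Il2ra-negative cells only, members again held more of the progenitor transcripts, with ratios nearer 1, and fewer of the T-lineage and granzyme transcripts. Mef2c had ratios of 1.58 (1.50 to 1.66) and 1.41 (1.35 to 1.47) there, Lmo2 of 1.48 and 1.42, Hoxa9 of 1.64 and 1.99, and Egfl7 of 2.06 (1.95 to 2.18) and 2.22 (2.13 to 2.31). Tcf7 was at 0.201 (0.174 to 0.232) and 0.236 (0.205 to 0.272), and Gzma at 0.0702 and 0.167. Dntt was at 2.24 (2.00 to 2.52) and 2.49 (2.27 to 2.72) within this class, above 1 in both experiments. Kit itself was at 0.784 and 0.843. Within the class, 3 and 2 genes were at least 2-fold higher and 40 and 45 at least 2-fold lower. Against all other kept cells the numbers were 10 and 9 higher and 58 and 114 lower.

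With all cultures pooled, Tcf7 and Gzma levels went down, and Mef2c and Egfl7 levels up, with the number of Flt3 UMIs. From 0 to 1 to 2 to at least 3 Flt3 UMIs, Tcf7 went from 175 to 56.7 to 38.2 to 17.4 CPM in experiment 1 and from 111 to 35.3 to 26.8 to 5.35 CPM in experiment 2. Il2ra went from 308 to 104 to 41.7 to 36.4 CPM, and from 162 to 50.1 to 52.1 to 9.23 CPM. Gzma went from 1323 to 397 to 329 to 136 CPM, and from 1220 to 368 to 192 to 37.9 CPM. Not every T-lineage gene had this order among members: from 1 to 2 to at least 3 Flt3 UMIs in experiment 2, Cd3g was at 38.3, 35.5 and 65.1 CPM and Bcl11b at 6.08, 4.24 and 8.26 CPM, all below the 212 and 30.6 CPM of Flt3-negative cells. Egfl7 went the other way, from 69.3 to 162 to 188 to 189 CPM and from 76.7 to 224 to 267 to 356 CPM. Mef2c went from 90.3 to 200 to 222 to 238 CPM and from 99.4 to 214 to 230 to 264 CPM, and Adgrl4 from 7.23 to 27.8 to 34.6 to 33.4 CPM and from 4.46 to 16.6 to 24.9 to 41.8 CPM. Kit varied little, between 51.2 and 70.0 CPM and between 28.2 and 35.2 CPM. Median depth went up with the Flt3 UMIs, from 24900 to 35314 UMIs per cell in experiment 1 and from 25884 to 40240 in experiment 2, and its part in these values was not tested. The cultures from which each class came may also differ, and their part was not tested either. The top classes held only 36 and 50 cells.

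**Figure D5:**
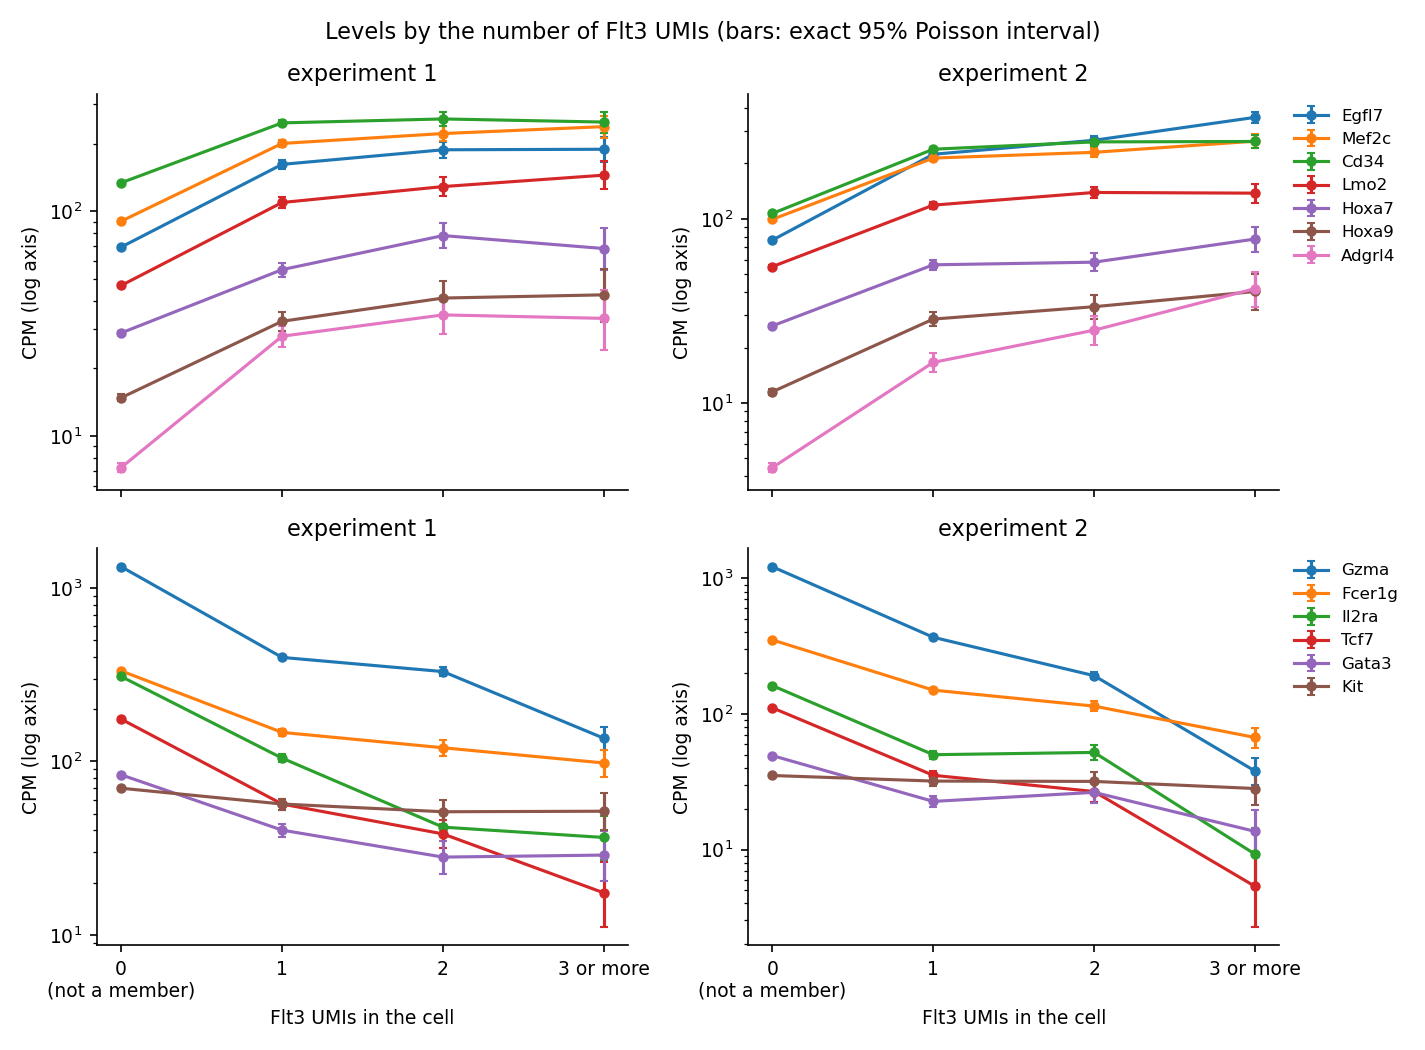
CPM (y axis, log scale) of progenitor genes (top) and of Kit, T-lineage and innate genes (bottom) by the number of Flt3 UMIs in the cell (x axis), with exact 95% Poisson intervals. From 0 to at least 3 Flt3 UMIs, Tcf7 goes from 175 to 17.4 CPM in experiment 1 and Mef2c from 90.3 to 238 CPM.

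Genes targeted by the vectors differed little on the whole. Runx1 had ratios of 0.927 (0.880 to 0.976) and 1.04 (0.996 to 1.09), and Runx3 of 0.926 (0.888 to 0.965) and 0.977 (0.940 to 1.01). Within hashtags of experiment 1, Runx1 was at 146 CPM in members against 251 in other cells of hashtag 7 and at 165 against 212 CPM in hashtag 8, the cultures with the highest Runx1, and at 64.6 against 77.2 CPM in hashtag 1. UMIs from a Runx1 vector and from the mouse gene cannot be told apart in these counts. Runx2, linked to plasmacytoid dendritic cells, had ratios of 1.42 and 1.35, and Cbfb, the shared partner of Runx factors, of 0.958 and 0.949. Of the E protein and Id list, Id2 had ratios of 0.746 and 0.474, Id3 of 0.603 and 0.527, and Tcf12 of 0.627 and 0.650. Bcl2, whose counts may include the transgene, had ratios of 0.588 (0.554 to 0.625) and 0.585 (0.556 to 0.615).

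Cell-cycle genes were near the level of the other cells. The 16 S-phase genes had a median ratio of 0.945 and 1.04, and the 16 genes of G2 and mitosis a median of 1.15 and 1.11, with 15 of the latter above 1 in each experiment and none at 2-fold. Weighting the other cells to the members' UMI totals brought the ratio of Cdk1 from 1.21 to 1.03 and, in experiment 2, from 1.15 to 1.05, and that of Ube2c from 1.31 to 1.04 and from 1.18 to 1.07. Ccnd1, which encodes cyclin D1, was 2-fold higher in experiment 1, at 2.14 (2.01 to 2.27), and at 1.36 (1.28 to 1.43) in experiment 2. Cdkn1a, which encodes the cell-cycle inhibitor p21, had ratios of 0.699 and 0.567.

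Members of the 2 experiments had similar levels of some progenitor genes, while others were lower in experiment 2. Between experiment 2 and experiment 1 the members' level differed by a factor of 1.07 (1.03 to 1.11) for Mef2c, 0.985 (0.948 to 1.02) for Cd34, 0.879 (0.834 to 0.927) for Bcl11a, 1.08 for Lmo2 and 0.974 for Hoxa7. Egfl7 was higher in members of experiment 2, at 1.45 (1.39 to 1.51) times its level in experiment 1, against 1.13 in the other cells. Kit was lower in members of experiment 2, at 0.572 (0.520 to 0.628) of its level in experiment 1, and so it was in the other cells, at 0.499. Myb behaved alike, at 0.569 in members and 0.520 in other cells. So did Etv6 (0.705 and 0.581), Nfe2 (0.706 and 0.643) and Mycn (0.433 and 0.447). The labels give different days of culture for the experiments, whose part in these values was not tested.

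The Flt3-positive cells that the dendritic-cell limits set aside shared many of the progenitor genes. Those with at least 3 H2-Aa UMIs had 205 CPM of Mef2c and 233 CPM of Cd34 in experiment 1, and 191 and 183 CPM in experiment 2, near the levels of members. Their Lmo2 was at 123 and 103 CPM, against 115.5 and 124.5 CPM in members. Bcl11a was at 118 and 108 CPM against 141 and 124, and Hoxa7 at 51.7 and 46.0 CPM against 60.0 and 58.4. Their Irf8 was at 121 and 297 CPM, against 65.9 and 109 CPM in members, and Cd74, on which the limit bears, at 753 and 2184 CPM. Their Egfl7 was at 121 and 125 CPM, below the 168 and 244 CPM of members.

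Pgam2, a muscle phosphoglycerate mutase, had the lowest ratios of all genes counted in both experiments, at 0.0375 (0.0270 to 0.0507) and 0.0423 (0.0344 to 0.0515). Among the hashtags compared it was abundant in only 1 per experiment. In hashtag 3 of experiment 1 it was at 4.10 CPM in members and 214 in other cells, and in hashtag 2 of experiment 2 at 19.4 and 316 CPM. Elsewhere it was at most 3.94 CPM in either group, and with weighting by hashtag the ratios were 0.0846 and 0.0739.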

How the data were processed

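Single-cell mRNA and hashtag libraries were made with 10x Chromium v3, per the labels' protocols. The authors deposited raw UMI counts per gene and barcode and raw hashtag counts per barcode, made with Cell Ranger 3.0.0 on mm10 (GRCm38), per the submitters' processing notes. Here, UMIs were summed over members and over other kept cells of the same experiment, expressed as CPM, and compared as a ratio with an exact conditional 95% interval. Genes with 10 UMIs in each sum and a mean of 20 CPM were counted, and a ratio of at least 2 or at most 0.5 was called. Hashtags were assigned with HTODemux (Seurat 5.3.0, quantile 0.99), and hashtag doublets were kept among all kept cells but left out of values by hashtag. No doublet caller removed cells: leaving out the top 5% of Scrublet scores (scanpy 1.11.5) was an alternative. Thinning drew 10000 UMIs per cell at random. Weighting by hashtag compared member single cells with the level expected from other single cells of the same hashtags, and weighting by depth used 20 groups by UMI total.

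Of 31053 gene identifiers, 30934 were in the gene name table, and 71 rows shared a symbol with another. Positions are from RefSeq (GRCm38.p6). Genes were named from 20 lists holding 238 genes, plus the 15 genes with the highest and the 15 with the lowest ratio in both experiments, ranked by the ratio nearer 1. The members and lists were chosen with earlier results of these data known. The ratios and intervals were tested on simulated counts that held counting error only. Differences between cells or cultures were not simulated, and weighting by hashtag was not tested in this way. Other alternatives changed the Flt3 minimum, the cell filter, the dendritic-cell limits, the CPM minimum, the scaling (edgeR 4.0.16, DESeq2 1.42.0) and the hashtag calls. Weighting by hashtag, with and without UMI total, and the restriction to Kit-positive Il2ra-negative cells were chosen after seeing the data. Python 3.11.15 and R 4.3.3 were used.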

Additional observations from a re-analysis of the deposited data

How the results depend on the processing

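The member share moved beyond its interval when the rule or the depth changed. It was 1.30% and 1.74% with at least 2 Flt3 UMIs, 0.386% and 0.490% with at least 3, 7.20% and 10.7% without the Siglech and H2-Aa limits, 2.77% and 3.21% at 10000 UMIs per cell, and 1.47% and 1.98% at 5000 (experiments 1 and 2 in turn). At least 1000 genes and under 5% mitochondrial UMIs gave 6.50% in experiment 1. The number of genes at least 2-fold higher in members, 10 and 9, became 19 and 19 with at least 3 Flt3 UMIs, 18 and 14 at 5000 UMIs per cell, 4 and 5 at a minimum of 50 CPM, 731 and 641 with no minimum, and 3 and 2 within Kit-positive Il2ra-negative cells. In experiment 2 it was also 14 at 10000 UMIs per cell, 2 with weighting by hashtag and 2 with weighting by hashtag and UMI total. The number at least 2-fold lower, 58 and 114, became 25 and 48 at 50 CPM and 1227 and 2419 with no minimum. In experiment 2 it was 70 without the dendritic-cell limits and 45 within Kit-positive Il2ra-negative cells. Without those limits the ratio of the highest to the lowest hashtag was 5.46 and 10.6.

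Among single cells, leaving out each hashtag in turn gave 10 to 13 and 9 to 14 genes higher, the latter 14 without hashtag 1, and 59 to 66 and 97 to 123 genes lower. The hashtag ratio ranged from 7.49 (without hashtag 6) to 11.9 and from 18.5 (without hashtag 1) to 27.0. In experiment 2 it was 14.7, with hashtag 7 lowest, when a cell's top tag had to be 3 times the second, and 60.9 (10.6 to 2441) at 10000 UMIs per cell, where hashtag 4 held 1 member. In experiment 1 it was 7.72 at 10000 UMIs and 6.63 at 5000. With at least 2 or 3 Flt3 UMIs the lowest hashtag had 0 members and no ratio could be formed. Without the dendritic-cell limits the ratio of Cd74 turned to 1.14 and 1.43, and in experiment 2 those of H2-Ab1, H2-Eb1 and Id2 to 1.61, 1.34 and 1.24. Gzmc in experiment 2 turned to 1.78 with at least 2 Flt3 UMIs, and the cause was not tested. Members and other cells of the same hashtag were set side by side as a description, and no paired test was made. No label assigns a hashtag to a group, so that hashtags do not replicate one. Depth limits the member share, since most members rest on 1 Flt3 UMI, and a cell with 0 Flt3 UMIs may still express the gene.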
